A study of Mus musculus with 26 samples.

Results

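Inflammatory cytokine RNA was followed in 2 cell fractions of mouse visceral fat through 10 genes, taken as the rows of both gene count tables whose symbol was Tnf, Il1b, Il1rn, Il6, Il10, Il15, Il18, Il33, Osm or Csf1, out of 39017 genes listed. All 10 were found in both tables, and all 10 passed the filter on low counts in each fraction. RNA sequencing had been done on epididymal fat of male wild-type C57BL/6J mice that started their diets at 9 to 10 weeks of age. LFD (lean) mice ate a diet with 10% fat for 12 weeks, HFD (obese) mice ate a diet with 60% fat for 12 weeks, and SW (formerly obese) mice ate HFD for 9 weeks and were then switched to LFD for 3 weeks. The fat was digested with collagenase and spun, which gave floating adipocytes and a pellet of stromal vascular cells (SVC), and red blood cells were lysed in the pellet. The 15 libraries used here were 9 of adipocytes (3 per diet) and 6 of SVC (2 HFD, 1 LFD and 3 SW). They are named by the number in their column.

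Cytokines are secreted proteins through which immune and tissue cells signal to each other. In obese fat, macrophages gather around enlarged adipocytes, and tumor necrosis factor and interleukins from the tissue are known to blunt the insulin response of adipocytes. TNF and IL-1 receptors signal through the transcription factor NF-kB, which raises transcription of several of these cytokines and of its own inhibitors. IL-6, IL-10 and oncostatin M signal through STAT3, and CSF1 keeps macrophages alive through its receptor.

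The libraries held 5781902 to 23725647 estimated counts, with the smallest totals in the LFD groups. The fractions were checked against marker genes. The summed level of 6 adipocyte markers was 3788 to 21691 counts per 1000000 counts (CPM, scaled with TMM factors) in adipocyte libraries and 169 to 717 CPM in SVC libraries. However, the adipocyte fraction also held RNA of macrophage markers, and its amount moved with diet. Summed CPM of 11 macrophage markers was 620 to 1029 in LFD, 7053 to 8236 in HFD and 5014 to 7255 in SW adipocyte libraries, no marker was at 0 in any of these libraries, and all 11 rose from LFD to HFD. From HFD to SW, 6 of the 11 were called lower and none higher, with a median log2 fold change of -0.79 (15.9% of all genes were called lower and 15.6% higher). Against LFD, 9 of the 11 were higher in SW, where 10.9% of all genes were. Of 4 mast cell markers, 3 also rose from LFD to HFD (summed CPM 28.7 to 47.0 in LFD and 67.7 to 168 in HFD). The summed markers of fibroblasts and progenitors were also higher in every HFD library (1068 to 1585 CPM in LFD and 1911 to 2772 in HFD, 2 of 5 called higher). Those of adipocytes (11526 to 21691 and 3788 to 7827 CPM, 4 of 6 called lower), mesothelial cells (58.0 to 91.2 and 9.89 to 25.6 CPM, 3 of 4 lower) and dendritic cells (42.7 to 53.1 and 22.5 to 25.2 CPM, 1 of 4 lower) were lower in every HFD library, and those of endothelial cells overlapped (2 of 4 lower). The part of these shifts in the cytokine values was not tested. Markers of T cells (0 of 5 tested), B cells (0 of 4) and neutrophils (0 of 3) did not pass the test from LFD to HFD, and the neutrophil marker Ly6g was at 0 in all 9 adipocyte libraries. From HFD to SW, 2 of 6 adipocyte, 2 of 4 B cell and 1 of 4 dendritic cell markers were called higher. Of the fibroblast and progenitor markers, 1 of 5 was called lower in that step. No T cell, endothelial, mesothelial, neutrophil or mast cell marker was called there. In SW against LFD, 3 of 4 mast cell markers were called higher (summed CPM 105 to 241 in SW). In the same comparison 3 of 4 endothelial, 2 of 4 mesothelial and 1 of 4 dendritic cell markers were called lower (6.18% of all genes were). No adipocyte, T cell, B cell, neutrophil or fibroblast and progenitor marker was called between SW and LFD. In bulk RNA, more cells of a type and more RNA per cell cannot be told apart. Library 212 of the HFD SVC stood apart in the cytokines themselves, and library 411, the other HFD SVC library, had 33.5% mitochondrial counts against 4.36 to 9.54% in the other 5 SVC libraries. Comparisons of the cytokines in HFD SVC are given with and without each of them.

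On the mouse genome GRCm38, the genes lie at chr17:35199381-35202007 (Tnf), chr2:129364570-129371139 (Il1b), chr2:24336853-24351494 (Il1rn), chr5:30013114-30019981 (Il6), chr1:131019845-131024974 (Il10), chr8:82331632-82403222 (Il15), chr9:50554827-50581840 (Il18), chr19:29925114-29960718 (Il33), chr11:4236420-4241026 (Osm) and chr3:107741048-107760469 (Csf1). RefSeq promoter windows of GRCm38.p6, from 250 bases before to 50 bases after a start site, were at hand for 7 of the 10 genes (10 windows); Il10, Il15 and Osm had no entry. The windows were searched on both strands for the NF-kB motif GGGNNTTTCC. The motif was in 535 of 32851 promoters (1.63%), and its wider form GGGNNNNNCC, which contains the narrow one, was in 50.8%. The narrow form was present for 3 of the 7 genes, and the wide form for 4 of the 7 genes (6 of the 10 windows), Tnf among them. As some genes had several windows, a count of genes is not on the scale of these shares per promoter. In Il6 it began 44 bases before the start, in Csf1 it began 154 bases before the start on the opposite strand, and in Il1rn it began 51 bases before a downstream start and was shared with an overlapping window. The windows printed here are those of Il6, Tnf and Il1b, which were high together in library 212, and of Il1rn, the gene with the largest change in adipocytes. Each is written 5′ to 3′ along its gene, with the narrow motif in capitals; the Tnf and Il1b windows hold none.
Il6 (chr5:30012864-30013163, plus strand): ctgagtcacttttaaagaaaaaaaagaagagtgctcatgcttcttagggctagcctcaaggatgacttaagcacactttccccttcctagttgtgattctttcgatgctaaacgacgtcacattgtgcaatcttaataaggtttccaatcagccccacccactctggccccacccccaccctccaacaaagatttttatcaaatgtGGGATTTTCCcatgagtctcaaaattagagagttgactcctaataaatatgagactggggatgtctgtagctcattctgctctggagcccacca
Il1rn (chr2:24345121-24345420, plus strand): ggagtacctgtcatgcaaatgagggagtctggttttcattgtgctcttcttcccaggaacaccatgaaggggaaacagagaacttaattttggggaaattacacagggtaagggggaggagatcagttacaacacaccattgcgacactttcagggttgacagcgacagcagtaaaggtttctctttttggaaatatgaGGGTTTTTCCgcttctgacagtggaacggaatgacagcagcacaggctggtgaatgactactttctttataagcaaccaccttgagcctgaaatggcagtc
Tnf (chr17:35201958-35202257, minus strand): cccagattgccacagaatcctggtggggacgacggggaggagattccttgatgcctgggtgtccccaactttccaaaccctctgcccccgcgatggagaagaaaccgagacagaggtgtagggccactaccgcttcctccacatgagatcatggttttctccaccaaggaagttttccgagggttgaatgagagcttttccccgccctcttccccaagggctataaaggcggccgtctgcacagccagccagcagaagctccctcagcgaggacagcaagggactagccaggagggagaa
Il1b (chr2:129371090-129371389, minus strand): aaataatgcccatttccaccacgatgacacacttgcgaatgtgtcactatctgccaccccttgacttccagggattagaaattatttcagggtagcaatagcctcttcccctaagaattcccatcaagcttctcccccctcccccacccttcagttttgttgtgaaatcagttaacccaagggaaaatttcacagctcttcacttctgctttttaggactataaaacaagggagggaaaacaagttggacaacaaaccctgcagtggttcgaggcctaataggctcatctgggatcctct

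To determine how obesity changed cytokine RNA in the adipocyte fraction, HFD was compared with LFD adipocytes. In all, 5 of the 10 rose and none fell, namely Il1rn, Il10, Osm, Tnf and Il33. That is 5 of 10, where 26.5% of the 14461 genes tested were called higher and 25.0% lower. The median fitted log2 fold change of the 10 cytokines was 1.37, against -0.03 over all genes tested. Every HFD library lay above every LFD library for 6 of the 10 (the 5 above and Il6), which held for 32.1% of all genes, with 30.5% the other way round.

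**Figure D1:**
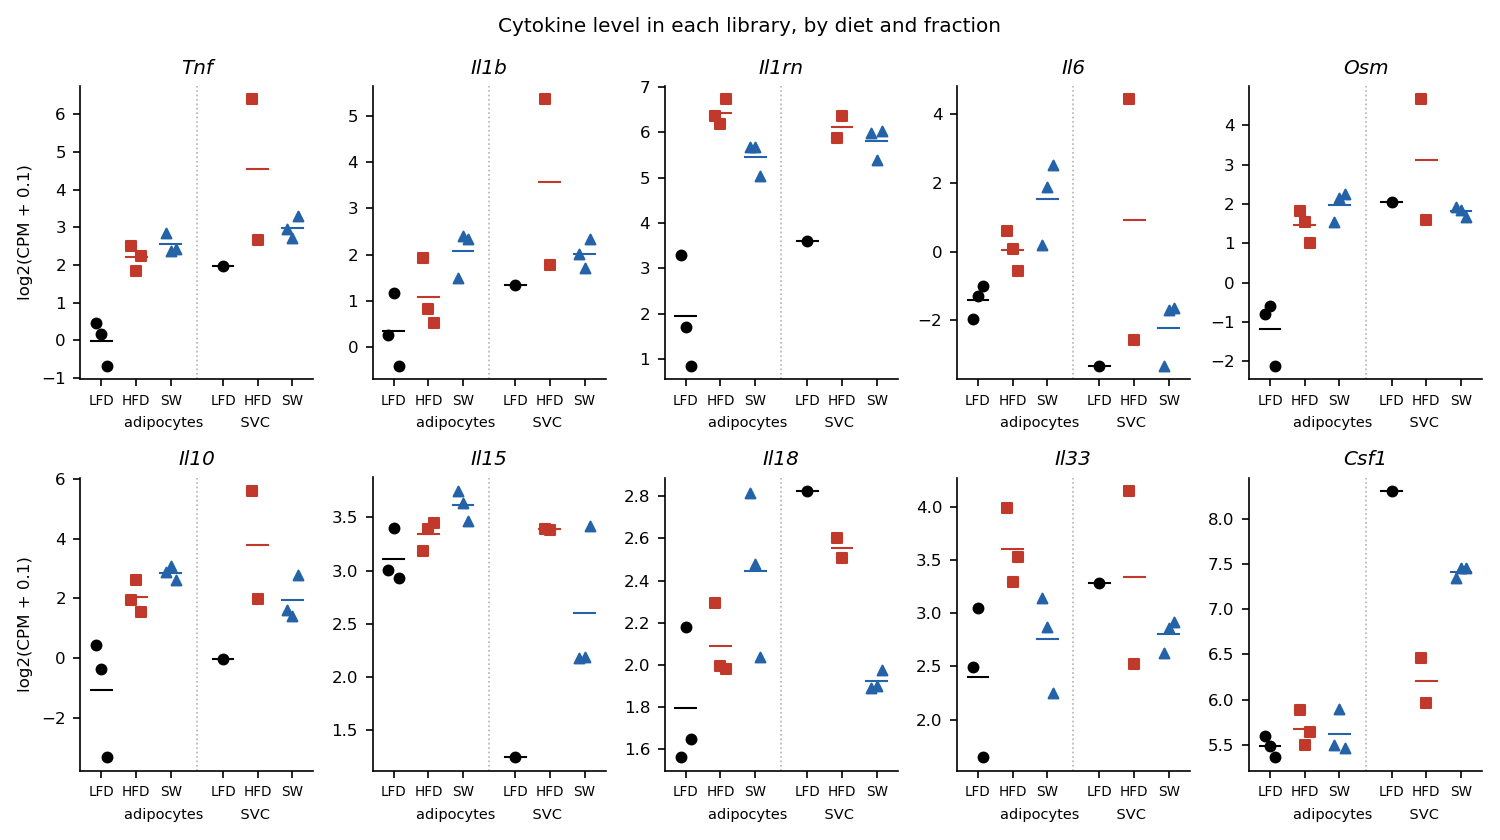
Level of each cytokine in every library as log2(CPM + 0.1), for adipocytes (left of the dotted line) and SVC (right), with LFD as black circles, HFD as red squares, SW as blue triangles and the group mean as a line. Il1rn, Tnf, Osm and Il10 sit higher in all HFD and SW adipocyte libraries than in all LFD ones, and a single HFD SVC library (212) stands above the other SVC libraries for Tnf, Il1b, Il6, Il10 and Osm.

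Among the pro-inflammatory ligands, Tnf, the founding member of the TNF family, was counted 8, 20 and 4 times in LFD libraries 404, 405 and 406, and 74, 84 and 104 times in HFD libraries 401, 402 and 403. Scaled to library size this was 1.27, 1.03 and 0.527 CPM in LFD and 5.56, 3.51 and 4.65 CPM in HFD, so the groups did not overlap. Tnf rose 4.76-fold (log2 2.25 ± 0.32 SE, n = 3 and 3, edgeR adjusted p = 0.000364). Osm, oncostatin M of the IL-6 family, was barely detected in LFD, with 3, 11 and 1 counts (0.476, 0.567 and 0.132 CPM), and had 46, 67 and 43 counts in HFD (3.46, 2.80 and 1.92 CPM). All HFD libraries exceeded the LFD libraries, and Osm rose 6.18-fold (log2 2.63 ± 0.44, edgeR adjusted p = 0.000857).

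Il6, a ligand of the gp130 receptor system, was at the limit of detection in LFD adipocytes, with 1, 6 and 3 counts (0.159, 0.309 and 0.396 CPM). In HFD it had 19, 23 and 13 counts (1.43, 0.960 and 0.581 CPM). The groups did not overlap, yet the difference did not pass the test (log2 1.66 ± 0.72, edgeR adjusted p = 0.0777). Il1b, which encodes the agonist of the IL-1 receptor, did not separate the diets. Its counts were 7, 42 and 5 in LFD (1.11, 2.17 and 0.659 CPM) and 49, 40 and 30 in HFD (3.68, 1.67 and 1.34 CPM), so that LFD library 405 lay above HFD libraries 402 and 403 (log2 0.60 ± 0.51, edgeR adjusted p = 0.345).

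The largest change of the 10 was in an antagonist. Il1rn encodes the IL-1 receptor antagonist, which occupies the IL-1 receptor without signaling. It had 61, 62 and 13 counts in LFD (9.67, 3.20 and 1.71 CPM) and 1087, 1741 and 2360 counts in HFD (81.7, 72.7 and 106 CPM). The lowest HFD library was far above the highest LFD library, and Il1rn rose 19.3-fold (log2 4.27 ± 0.46, edgeR adjusted p = 6.15e-05). Il10, an interleukin that restrains macrophage activation, had 8, 13 and 0 counts in LFD (1.27 and 0.671 CPM, and in library 406 a count of 0, which allows up to 0.399 counts in 1000000) and 50, 146 and 63 counts in HFD (3.76, 6.09 and 2.82 CPM). These groups did not overlap either, and Il10 rose 6.66-fold (log2 2.74 ± 0.58, edgeR adjusted p = 0.00319).

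Of the remaining 4 genes, only Il33 passed the test. Il33, a nuclear alarmin of stromal cells and the ligand of the ST2 receptor, had 5.55, 8.15 and 3.03 CPM in LFD and 15.7, 9.68 and 11.4 CPM in HFD. Its groups were separate but close, and its 2.10-fold rise (log2 1.07 ± 0.34, edgeR adjusted p = 0.0236) did not pass without library 401, 404 or 406 (highest adjusted p = 0.0777). Il15, a growth factor of natural killer and memory T cells, was at 8.64 ± 1.60 CPM in LFD and 10.1 ± 0.94 CPM in HFD (SD, n = 3 each, edgeR adjusted p = 0.329). Il18, a ligand that is cut to its active form by caspase-1, was at 3.44 ± 0.87 CPM in LFD and 4.18 ± 0.55 CPM in HFD (edgeR adjusted p = 0.486). Csf1, the macrophage growth factor, was at 44.7 ± 3.68 CPM in LFD and 51.2 ± 6.91 CPM in HFD (edgeR adjusted p = 0.298). For these 3 genes the LFD and HFD libraries overlapped.

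**Figure D2:**
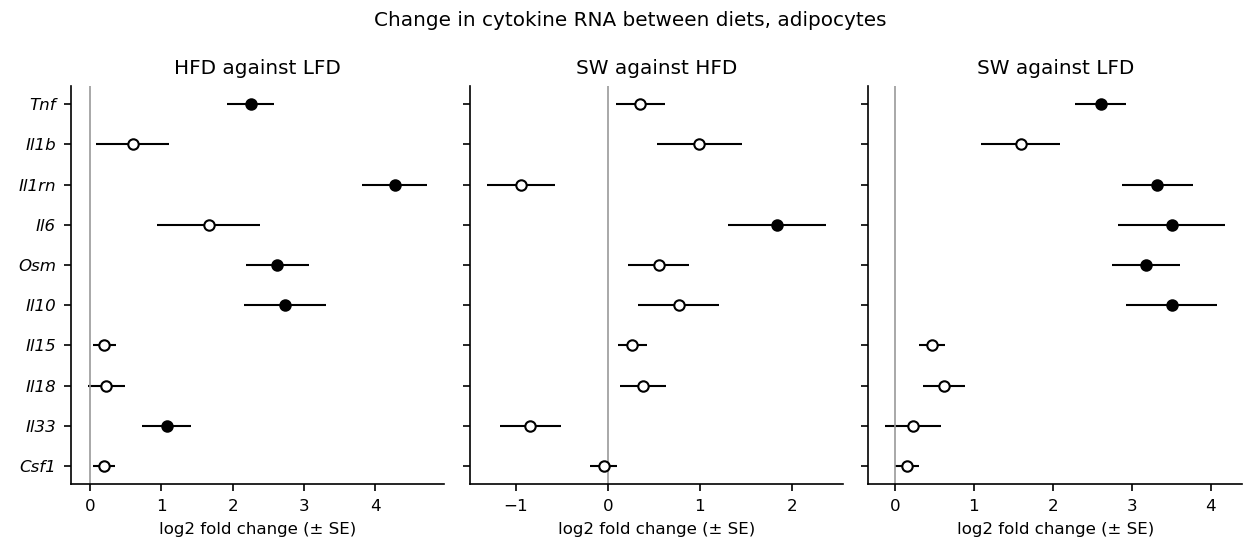
Fitted log2 fold change (point) and its standard error (bar) of the 10 cytokines in adipocytes for the 3 diet comparisons; filled points passed an adjusted p of 0.05 in edgeR's quasi-likelihood test. Tnf, Il1rn, Osm and Il10 are filled in both comparisons with LFD, and Il6 is the only filled point between SW and HFD.

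To determine whether cytokine RNA went back after the change of diet, SW adipocytes were compared with HFD and with LFD adipocytes; the comparisons share libraries and are not independent. Against HFD, 1 of 10 cytokines was called higher and none lower, where 15.6% of all genes were called higher and 15.9% lower, and the median log2 fold change was 0.37. Against LFD, 5 of 10 were called higher (Tnf, Il1rn, Il6, Il10 and Osm), where 10.9% of all genes were called higher and 6.18% lower, and the median was 2.10. Every SW library lay above every LFD library for 7 of 10 cytokines, which held for 19.1% of genes, with 17.5% the other way round.

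Tnf stayed above its lean level in every SW library. In SW libraries 407, 408 and 409 it had 68, 85 and 74 counts (7.15, 5.11 and 5.29 CPM), within and above the range of HFD (log2 0.36, edgeR adjusted p = 0.327) and 6.09-fold above LFD (log2 2.61, edgeR adjusted p = 0.000475). Osm had 2.84, 4.33 and 4.65 CPM in SW, which overlapped with HFD (log2 0.55, edgeR adjusted p = 0.224) and was 9.07-fold above LFD (log2 3.18, edgeR adjusted p = 0.000795). Il10 had 7.25, 8.47 and 6.01 CPM in SW. Only the lowest of these fell inside the HFD range (log2 0.77, edgeR adjusted p = 0.199), and Il10 was 11.4-fold above LFD (log2 3.51, edgeR adjusted p = 0.00232).

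Il6 was the single cytokine called between SW and HFD. Its 10, 60 and 78 counts in SW (1.05, 3.60 and 5.58 CPM) compared with 13 to 23 counts in HFD, a 3.59-fold rise (log2 1.84 ± 0.53, edgeR adjusted p = 0.0275). This rise rests on libraries 408 and 409, since library 407 lay inside the HFD range. The call was lost without library 402, 403, 408 or 409 (highest adjusted p = 0.112). Against LFD, Il6 was 11.4-fold higher in SW (log2 3.51, edgeR adjusted p = 0.00583). Il1b had 2.73, 5.23 and 4.94 CPM in SW, above all 3 LFD libraries, but neither the comparison with LFD (log2 1.59, edgeR adjusted p = 0.0532) nor that with HFD (log2 1.00, edgeR adjusted p = 0.120) passed the test. Other settings moved these across the threshold, with adjusted p of 0.0156 in DESeq2 against LFD and 0.0423 in limma-voom against HFD.

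Il1rn and Il33 were lower in each of the 3 SW libraries than in any HFD library, as was the case for 25.2% of all genes (23.3% were higher in this way). Il1rn had 51.2, 51.1 and 32.5 CPM in SW, with a log2 fold change of -0.95 against HFD that did not pass (edgeR adjusted p = 0.0734; 0.023 with limma-voom and 0.0182 with only these 2 diets in the fit). It was still 10.0-fold above LFD (log2 3.32, edgeR adjusted p = 0.000739). Il33 had 8.73, 7.21 and 4.65 CPM in SW (log2 -0.84 against HFD, edgeR adjusted p = 0.0759), inside the LFD range save for library 407. Il15 (12.2 ± 1.21 CPM in SW), Il18 (5.47 ± 1.47 CPM) and Csf1 (49.5 ± 8.73 CPM) passed the test in neither comparison, although Il15 was slightly above all HFD and LFD libraries in each SW library (13.4, 12.3 and 10.9 CPM).

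Because the antagonist Il1rn and the agonist Il1b compete for the same receptor, their counts were also set against each other within each library, where library scaling drops out. The counts were not divided by transcript length, so the ratio serves to compare libraries and not the levels of the 2 genes. There were 8.71, 1.48 and 2.60 Il1rn counts per Il1b count in LFD adipocytes, 22.2, 43.5 and 78.7 in HFD and 18.7, 9.78 and 6.58 in SW. On the log2 scale with a pseudocount of 0.5, the ratio was 1.63 ± 1.27 in LFD, 5.39 ± 0.91 in HFD and 3.40 ± 0.75 in SW (SD, n = 3 each). HFD exceeded LFD by 3.76 without overlap (p = 0.1, two-sided exact permutation test, the smallest that 3 against 3 can give). SW was below HFD by a difference of -1.99, again without overlap (exact permutation p = 0.1), and overlapped with LFD (difference 1.77, exact permutation p = 0.2).

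**Figure D3:**
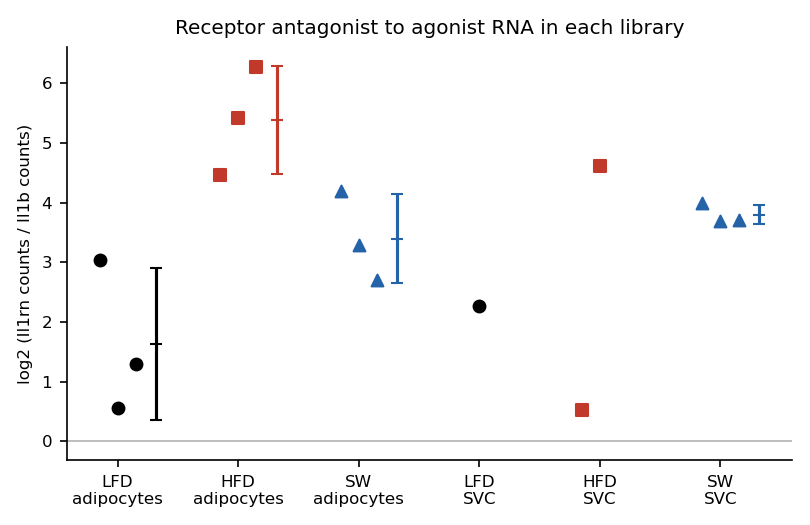
Log2 ratio of Il1rn to Il1b counts (pseudocount 0.5) in each library by diet and fraction, with mean ± SD beside groups of 3 libraries. The 3 HFD adipocyte libraries sit above the other 6 adipocyte libraries, and the 2 HFD SVC libraries lie at 0.52 (library 212) and 4.62 (library 411).

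Since macrophage markers moved with diet in the adipocyte fraction, each cytokine was also set against the summed counts of the 11 macrophage markers of its library. Lyz2 alone made up 45.8 to 60.0% of that sum in adipocyte libraries. Because the marker sum was so much higher in HFD, 95.7% of all 14461 genes were lower per marker count in every HFD library than in every LFD library, 0.906% were higher, and the median difference of all genes was -3.21 (log2). Of the 10 cytokines, Il1rn was higher without overlap (1.30, two-sided exact permutation p = 0.1). Tnf per marker count was lower in HFD by a log2 difference of -0.93 without overlap (exact permutation p = 0.1), although Tnf itself rose. Il10 (0.17) and Osm (-0.45) overlapped between LFD and HFD. Il1b (-2.45), Il6 (-1.66), Il15 (-2.95), Il18 (-2.90), Il33 (-1.98) and Csf1 (-2.99) were lower per marker count in every HFD library than in every LFD library, each with an exact permutation p = 0.1, so the values of Il15, Il18 and Csf1 lay near the median of all genes. From HFD to SW, where 38.8% of all genes were higher without overlap, 5.83% lower and the median was 0.44, the ratio was higher without overlap for Tnf (0.80), Il10 (1.27), Il15 (0.71) and Il18 (0.80) and lower without overlap for Il1rn (-0.52) and Il33 (-0.42), each with an exact permutation p = 0.1. Against LFD, where 95.4% of all genes were lower in SW and the median was -2.75, the ratio was lower without overlap for Il1b (-0.99), Il15 (-2.24), Il18 (-2.10), Il33 (-2.39) and Csf1 (-2.61) and overlapped for the other cytokines. With Csf1r and Adgre1 as the only markers, the values of Il1rn and Il33 from HFD to SW changed sign (0.10 and 0.21), and so did Il10 from LFD to HFD (-0.19). Adjusted over all 34 ratio tests (Benjamini-Hochberg), the smallest exact permutation p became 0.162. Which cells the cytokine RNA came from was not tested.

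Among the 17 receptor chains of these ligands, 8 rose, 1 fell and 8 did not pass from LFD to HFD in adipocytes, with a median log2 fold change of 0.56 (26.5% of all genes were called higher and 25.0% lower). Il6ra, the ligand-binding chain for IL-6, rose most, from 5.71, 2.48 and 2.37 CPM in LFD to 26.3, 19.4 and 25.6 CPM in HFD (log2 2.84, edgeR adjusted p = 0.000564). Csf1r (log2 2.81), the CSF1 receptor and itself a macrophage marker, Il10ra (2.27), Tnfrsf1b (2.07), Il1rl1 (1.89), which encodes ST2, Il1rap (1.49), Il10rb (1.31) and Il1r1 (0.90) rose too. Il15ra fell by 0.53 on the log2 scale, close to the threshold (edgeR adjusted p = 0.0497). The widely expressed Tnfrsf1a (log2 0.16), the shared chain Il6st (-0.26) and Osmr (0.00) did not pass, nor did Il1r2 (0.39), Il2rb (0.56), Il2rg (0.42), Il18r1 (-0.57) and Il18rap (0.52).

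After the switch, 6 of the 17 receptor chains fell against HFD and none rose (15.9% of all genes were called lower and 15.6% higher). Il6ra went to 1.68, 6.43 and 6.22 CPM in SW libraries (log2 -2.26, edgeR adjusted p = 0.00609), just below or just above the LFD range, while its ligand Il6 was called higher in the same comparison. Il1rl1 (-1.05), Il1rap (-0.93), Csf1r (-0.90), Il1r1 (-0.87) and Il10rb (-0.52) fell as well. Il10ra (-0.31) and Tnfrsf1b (-0.43) did not pass against HFD and were still above LFD (1.96 and 1.64). Against LFD, 5 of 17 were higher in SW, where 10.9% of all genes were.

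**Figure D4:**
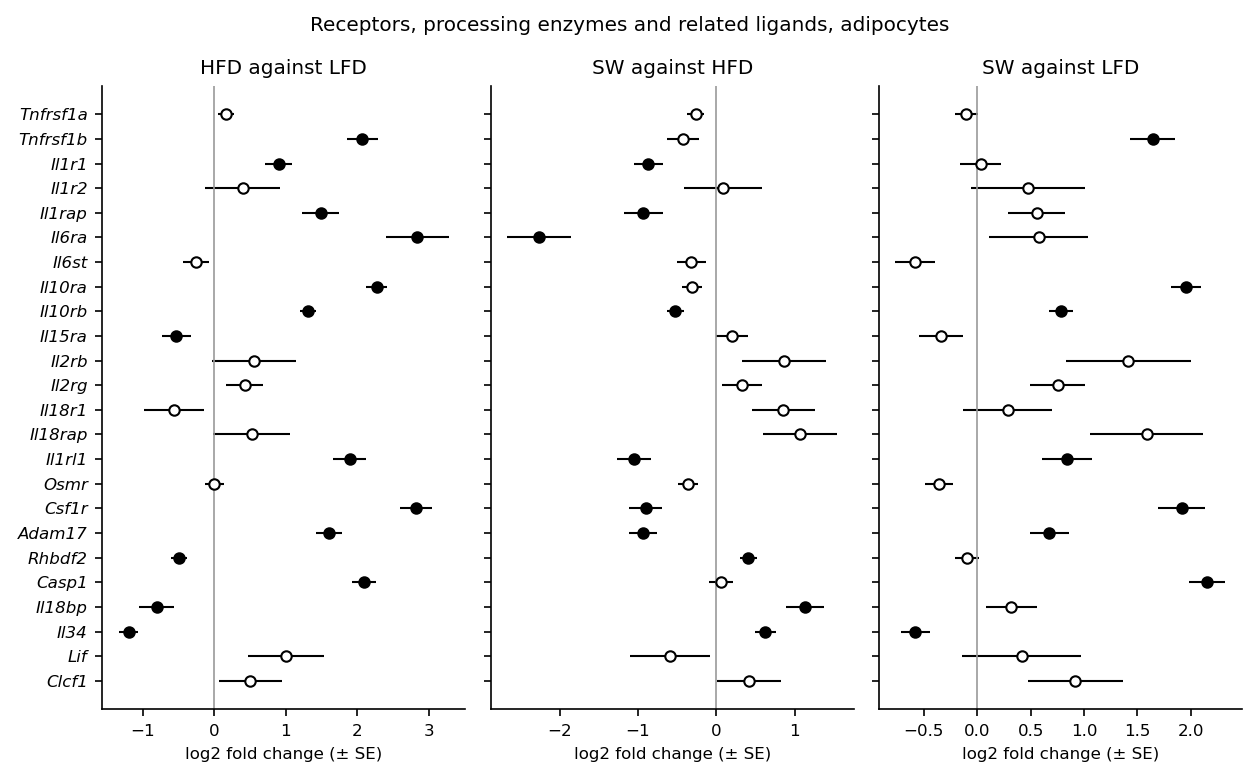
Fitted log2 fold change ± SE in adipocytes of the 17 receptor chains and of the 7 tested genes for processing enzymes, soluble inhibitors and other ligands, for 3 diet comparisons; filled points passed an adjusted p of 0.05 in edgeR's quasi-likelihood test. Il6ra has the largest rise from LFD to HFD (2.84) and the largest fall from HFD to SW (-2.26), while Casp1 rises by 2.09 and stays near 0 between HFD and SW.

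Of 10 genes for processing enzymes, soluble inhibitors and other ligands of the same receptors, 7 could be tested in adipocytes; Il1a, Lta and Il11 had too few counts. Casp1, the protease that activates IL-1 beta and IL-18, rose from 12.4, 15.0 and 12.1 CPM in LFD to 57.6, 53.8 and 59.1 CPM in HFD (log2 2.09, edgeR adjusted p = 1.48e-05), so the groups were far apart. It was at 75.0, 53.3 and 49.6 CPM in SW (log2 0.06 against HFD), and thus above LFD in every library. Adam17, which sheds TNF from the cell surface, rose by 1.61 in HFD and fell by 0.93 on the log2 scale in SW. Il34, the second ligand of the CSF1 receptor (log2 -1.20), the IL-18 antagonist Il18bp (-0.81) and Rhbdf2 (-0.50), which supports ADAM17, were lower in HFD, and all 3 rose again from HFD to SW (0.62, 1.13 and 0.40). Lif (1.00) and Clcf1 (0.50) did not pass.

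Of 17 NF-kB feedback and target genes, 10 rose and none fell from LFD to HFD in adipocytes (median log2 0.63), where 26.5% of all genes rose and 25.0% fell. The largest rises were in Rel (2.87), an NF-kB subunit, Tnfaip2 (2.02) and Nfkbie (0.98). Of 11 STAT3 target genes, 7 rose and 1 fell (median log2 1.02), with the largest rises in Timp1 (3.13), Fos (1.44) and the feedback inhibitor Socs3 (1.38), and a fall in Cish (-1.83). Against HFD, Relb (0.45) was the 1 NF-kB gene higher in SW, and Rel (-1.37), Nfkb1 (-0.68) and Irak3 (-0.41) were lower, while the cytokine signaling inhibitors Socs1 (1.56) and Cish (1.34) were higher among the STAT3 genes. Against LFD, 7 NF-kB and 6 STAT3 genes were higher in SW and none was lower, where 10.9% of all genes were higher and 6.18% lower. In SVC, 2 of the 17 NF-kB genes were called higher in SW than in HFD, Tnip1 (1.15) and Icam1 (0.85), and 1 lower, Rel (-2.83). Of the 11 STAT3 genes, 1 was called higher, Lcn2 (2.25), and none lower. Of all genes, 5.71% were called higher and 11.7% lower in that comparison. These calls are given with both HFD SVC libraries in the fit only.

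In SVC, SW could be compared with HFD only, as LFD had a single library. For 5 of the 10 cytokines the HFD group consisted of a very high library, 212, and library 411, which was close to SW. Tnf had 1449 and 91 counts in libraries 212 and 411 (84.0 and 6.28 CPM), 22 in the LFD library (3.84 CPM) and 158, 89 and 74 in SW libraries 413, 414 and 412 (6.53, 9.75 and 7.63 CPM). Il1b had 40.8 and 3.31 CPM in HFD, 2.44 CPM in LFD and 3.18, 4.93 and 3.92 CPM in SW. In both genes, library 212 alone left the range of the others. Il6 had 369 counts in library 212 and 1, 0, 5, 2 and 0 counts in libraries 411, 236, 413, 414 and 412; the 0 in LFD library 236 allows up to 0.519 counts in 1000000. Il10 (837 counts in library 212, 5 to 62 in the others) and Osm (434 counts, 23 to 85 in the others) had the same shape.

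In library 212, the CPM of Tnf was 8.62 times, of Il1b 8.28 times, of Il10 7.14 times and of Osm 6.26 times the highest of the other 5 SVC libraries. Il6 had the largest such ratio of all 16319 genes when values under 0.5 CPM were set to 0.5. A ratio above 4 was found for 132 of the 16319 genes (0.809%), and 5 of the 10 cytokines were among them. Library 212 was singled out for its high values of these cytokines, and the cut of 4 lies below all 5 ratios. The count therefore describes the library and is no test. Of the NF-kB feedback and target genes, Tnfaip3 (20.3 times), Nfkbiz (16.4 times) and Nfkbia (4.29 times) were high in the same library, while 10 of the 17 were below the highest other library. By contrast, Il1rn (0.714 times), Il15, Il18 (0.855 times) and Csf1 (0.277 times) were not above the other libraries, and the summed macrophage markers were 8323 CPM in library 212, inside the range of 5852 to 15309 CPM of the others. Library 212 also had the lowest share of hemoglobin counts, 0.287% against 2.76 to 5.15%. The part of these differences in the cytokine values was not tested.

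**Figure D5:**
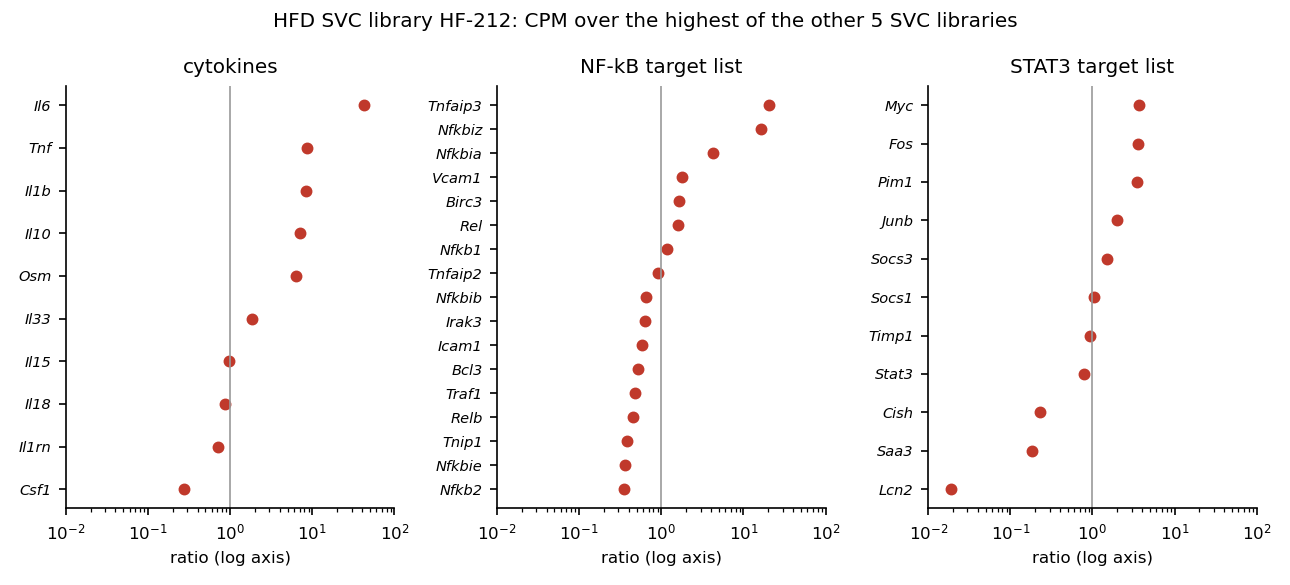
Level (CPM) in HFD SVC library 212 divided by the highest level in the other 5 SVC libraries, on a log axis, for the 10 cytokines and the NF-kB and STAT3 target lists; denominators below 0.5 CPM were set to 0.5, which applies to Il6. The points of Il6, Tnf, Il1b, Il10 and Osm lie above 4, with Tnfaip3, Nfkbiz and Nfkbia, while Csf1 lies at 0.277.

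Between SW and HFD SVC, 1 of the 10 cytokines was called, Csf1, where 5.71% of all genes were called higher and 11.7% lower. Csf1 had 1519 and 899 counts in HFD (88.1 and 62.0 CPM), 1818 in LFD (317 CPM) and 4242, 1598 and 1577 in SW (175, 175 and 163 CPM). The SW libraries lay close together above both HFD libraries (28.5% of genes were so placed, and 30.0% below) and under the LFD library, and the rise from HFD to SW was 2.28-fold (log2 1.19 ± 0.24, n = 3 and 2, edgeR adjusted p = 0.0381). It held without either HFD library (adjusted p = 0.0172 and 0.0357) and was lost without library 412, 413 or 414, in which case at most 593 genes passed in the whole table (highest adjusted p = 0.155). The fitted changes of Tnf (log2 -2.51), Il1b (-2.47), Il6 (-6.04), Il10 (-2.69) and Osm (-2.03) did not pass (edgeR adjusted p = 0.0661 to 0.107). Without library 212 the values of Tnf (0.41), Il1b (0.34), Il10 (0.16), Osm (0.32) and Il33 (0.36) were positive. Without library 411, when library 212 alone stood for HFD, they were -3.40, -3.35, -3.58, -2.86 and -1.35 in the same order. Each of these fits had 1 HFD library, so only the sizes are given for these genes.

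Il33 was also highest in library 212, at 17.6 CPM, against 5.66 CPM in library 411, 9.60 CPM in LFD and 7.15, 7.45 and 6.08 CPM in SW. Il1rn, Il15 and Il18 had no such high library. Il1rn was at 58.7 and 82.2 CPM in HFD, 12.0 CPM in the LFD library and 41.5, 65.2 and 62.9 CPM in SW, so that all 5 HFD and SW libraries were 3.45 to 6.82 times above the LFD library. With 1 LFD library that difference has no replicate check. Il18 was at 5.97 and 5.59 CPM in HFD, 6.99 CPM in LFD and 3.64, 3.83 and 3.61 CPM in SW, and every SW library was below the HFD libraries although the test did not call it. Il15 was at 10.4 and 10.3 CPM in HFD, 2.27 CPM in LFD and 4.46, 10.6 and 4.43 CPM in SW.

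Finally, the fractions were compared with each other in 1 fit of all 15 libraries. In HFD mice 6 cytokines were called higher in SVC than in adipocytes (Tnf, Il1b, Il6, Il10, Osm and Csf1), where 16.2% of genes were called higher and 12.9% lower. Without library 212 the log2 differences were 0.86 (Tnf), 0.99 (Il1b), -3.29 (Il6), 0.26 (Il10), 0.49 (Osm) and 0.67 (Csf1). Without library 411, in the same order, they were 4.44, 4.46, 4.69, 3.75, 3.45 and 1.01. Each of these fits had 1 HFD SVC library, so only the sizes are given. The SW group includes neither library. In SW mice Csf1 was higher in SVC (log2 2.21, edgeR adjusted p = 3.22e-07) and Il6 lower (log2 -3.98, edgeR adjusted p = 0.0173). Of all genes, 35.6% were called higher and 32.8% lower there. With all libraries scaled together, Il6 was at 0.937, 3.22 and 5.01 CPM in SW adipocytes and at 0.253, 0.261 and 0 CPM in SW SVC. The fractions did not overlap, so that in SW mice Il6 RNA took a larger share of the adipocyte fraction; the call was lost without library 409, 412 or 413 (highest adjusted p = 0.0536). On the same scale, Csf1 was at 39.6 to 53.2 CPM in all SW and HFD adipocyte libraries, at 73.4 and 93.6 CPM in HFD SVC and at 191 to 214 CPM in SW SVC.

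The change from HFD to SW itself differed between the fractions for 6 of the 10 cytokines (11.4% of genes were called higher in SVC and 15.7% lower). Csf1 rose more in SVC (difference of log2 changes 1.35, edgeR adjusted p = 0.00276), and this call was kept without library 212 (1.54, adjusted p = 0.00357). Tnf (-2.70), Il1b (-3.30), Il6 (-7.68), Il10 (-3.30) and Osm (-2.41) went down in SVC relative to adipocytes, with edgeR adjusted p from 0.00699 to 0.0423. Without library 212 the differences of these 5 ranged from -0.70 to 0.01. Without library 411 they were -3.68 (Tnf), -4.28 (Il1b), -8.75 (Il6), -4.29 (Il10) and -3.33 (Osm). Whichever library was left out, the difference of Csf1 stayed between 1.09 and 1.54.

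The levels of the 10 genes were ordered per kilobase of the longest coding transcript. In LFD adipocytes, Csf1 led with a mean of 9.53 CPM per kilobase, ahead of Il15 (4.03), Il18 (3.47), Il33 (1.95) and Il1rn (1.74), and Il6 was last (0.110). In HFD adipocytes Il1rn was first (31.6 CPM per kilobase), before Csf1 (11.1), and Il6 was still last (0.380). In SW adipocytes the order again began with Il1rn (16.2) and Csf1 (10.6). In SW SVC, Csf1 (49.0 CPM per kilobase) led, before Il1rn (27.3) and Tnf (5.81). These are fractions of RNA and say nothing of protein.

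The genes whose levels followed each cytokine most closely over the 15 libraries (Pearson r of log2 CPM, a description over libraries that share diet and fraction) were Nfkbid (r = 0.974), Ccl4 (0.958) and Osm (0.949) for Tnf. They were Tnf (0.933), Ppp1r15a (0.931) and Osm (0.924) for Il1b, Nfkbiz (0.939), Tnfaip3 (0.933) and Gm17024 (0.911) for Il6, and Gadd45b (0.943), Ccl4 (0.942) and Gdf15 (0.941) for Il10. For Osm they were Tnf (0.949), Nfkbid (0.932) and Dusp5 (0.930). These 5 lists depended on library 212. Without it, an alternative chosen after seeing the data, the closest gene was Ncf1 (0.984) for Tnf, Socs3 (0.849) for Il1b, Murc (0.908) for Il6, Clec4d (0.926) for Il10 and Cd14 (0.934) for Osm. Without library 411, likewise added after seeing the data, it was Nfkbid (0.984) for Tnf, Ppp1r15a (0.972) for Il1b, Nfkbiz (0.937) for Il6, Cxcl2 (0.945) for Il10 and Dusp5 (0.960) for Osm. Il1rn, by contrast, kept Ms4a6d (0.988), Cd300lb (0.985) and Lipa (0.983) as its nearest genes over all libraries and without library 212 or 411, and Csf1 kept Fzd2 (0.990) and Ace (0.989) among its 3 nearest in each case, with Fkbp10 (0.989) among its 3 nearest over all libraries. Within the 9 adipocyte libraries alone, however, other genes came nearest. They were Gas2l3 (0.998), Cd200r4 (0.997) and Emb (0.996) for Il1rn, and Gm4951 (0.942), Gm16710 (0.934) and Dact1 (0.921) for Csf1. Over all libraries, the nearest genes were Lamtor3 (0.933), Prelid2 (0.923) and Exosc8 (0.912) for Il15, Igj (0.929), Gm4955 (0.906) and Maf (0.899) for Il18, and Etv6 (0.914), Fyn (0.882) and C1qtnf7 (0.864) for Il33. Without library 212 the closest gene to Il15 changed to Tma7 (0.944), while Igj (0.923) and Etv6 (0.912) stayed closest to Il18 and Il33.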

How the data were processed

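Reads had been aligned with Bowtie2 to mm9 and summarized per gene with RSEM, per the labels' processing notes (versions not given in the sources used here). The deposited values are estimated counts per gene, which the authors left unnormalized; all were whole numbers, so rounding changed none. The labels hold 26 records of 18 libraries, 8 of them with 2 runs, and whether runs were added up is not stated. Titles name each run as paired-end or single, and the mix differed between groups. SW adipocytes had paired-end runs only, while LFD and HFD adipocytes also had single runs. All SW SVC libraries had both kinds, while some LFD and HFD SVC libraries had single runs only. The part of this in the diet comparisons was not tested. CPM in the text were computed from these counts and TMM factors. Columns were tied to groups by fraction and diet in their names, and 3 columns that could not be tied to a sample were not used. Titles of SW samples call the mice low fat diet fed, and their treatment label gives the 9 and 3 weeks. Nothing ties libraries to single mice, so p-values measure the spread between these libraries. Chi-square per degree of freedom was 12.8 to 376 over 13 pairs of replicates, so none was a duplicate within counting noise.

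Counts were tested with edgeR 4.0.16 under R 4.3.3 (low genes removed by filterByExpr at 10 counts, scaling by TMM, robust quasi-likelihood fit, Benjamini-Hochberg over all genes tested, threshold 0.05), within each fraction and in 1 fit of 15 libraries for comparisons between fractions. The authors had used limma; limma-voom (3.58.1) and DESeq2 (1.42.0), other scaling factors, filters, thinning to the smallest library, fits of 2 groups and leaving out each library were alternatives. Ratios were compared with two-sided exact permutation tests in scipy 1.17.1. All 10 cytokines were named, and genes of the receptor, processing, NF-kB and STAT3 lists by call and size of change. Members and lists were chosen with earlier results of these data known. Emr1 was read as Adgre1 by its Ensembl identifier. Gene positions came from the GRCm38 annotation, not from mm9. The 3-count limit given for a count of 0 covers counting error only. Scripts were tested on simulated data.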

Additional observations from a re-analysis of the deposited data

Results flagged for a closer look

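For 6 cytokines, SVC and adipocytes responded unequally to the switch from HFD, by a test of that difference (edgeR's quasi-likelihood interaction term, Benjamini-Hochberg adjusted). The differences, SVC minus adipocytes on the log2 scale, were -2.70 for Tnf (adjusted p = 0.0347), -3.30 for Il1b (0.0252), -7.68 for Il6 (0.00699), -3.30 for Il10 (0.0332), -2.41 for Osm (0.0423) and 1.35 for Csf1 (0.00276). Without HFD SVC library 212, the difference was 1.54 for Csf1 and between -0.70 and 0.0079 for the others.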

How the results depend on the processing

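With at least 10 counts required in every library, 5 cytokines could be tested, and the calls were 2 for HFD against LFD, 0 for SW against HFD and 1 for SW against LFD in adipocytes, 2 for the difference between fractions, 2 for SVC against adipocytes in HFD mice and 1 in SW mice. For SW against HFD in adipocytes, limma-voom called 3, the fit of only these 2 groups 2 and thinned counts 0. DESeq2 called 4 for SW against HFD in SVC. For the difference between fractions, limma-voom called 1 and no filter 3. Leaving out 1 library gave 4 to 5 calls for HFD against LFD, 0 to 2 for SW against HFD and 5 to 7 for SW against LFD in adipocytes, 0 to 7 in SVC, 1 to 6 for the difference, and 1 to 6 and 1 to 3 between fractions in HFD and SW mice. Without library 212 or 411, the lone HFD SVC library was assumed to vary like the other groups. The share of all genes called also moved between fits and is not given beside these counts. The counts show how calls depend on processing and are not a result about the cytokines alone.

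With Csf1r and Adgre1 alone as macrophage markers, the ratio changed sign for Tnf in SW against LFD (0.14), Il1rn (0.10) and Il33 (0.21) in SW against HFD, and Il10 in HFD against LFD (-0.19, and -0.20 with a pseudocount of 1). Leaving out 1 library gave -0.22 to 0.0035 for that Tnf ratio, -0.26 to 1.18 for Il6 in SW against LFD, -0.88 to 0.93 for Il10 in HFD against LFD, and -0.82 to 3.28 for Il1rn to Il1b in SVC. Log2 fold changes that changed sign when 1 library was left out ranged as follows. In adipocytes they were -0.22 to 0.054 for Csf1 in SW against HFD, and -0.046 to 0.68 for Il33 and -0.012 to 0.23 for Csf1 in SW against LFD. In SVC they were -3.40 to 0.41 for Tnf, -3.35 to 0.34 for Il1b, -3.58 to 0.16 for Il10, -1.35 to 0.36 for Il33 and -2.86 to 0.32 for Osm. For the difference between fractions they were -3.68 to 0.0079 for Tnf and -0.42 to 1.16 for Il33. For SVC against adipocytes they were -0.33 to 0.32 for Il1rn, -3.29 to 4.69 for Il6 and -0.72 to 0.76 for Il33 in HFD mice, and -0.044 to 0.46 for Il1b and -0.069 to 0.35 for Osm in SW mice. The causes were not tested.

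No paired analysis was possible because the columns carry none of the labels' replicate numbers. LFD adipocyte libraries 404 and 406 and LFD SVC library 236 were the shallowest, and a count of 0 there allows 0.488, 0.399 and 0.519 counts in 1000000.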
